A study of Mus musculus with 6 samples.

Results

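RNA of 10 mouse genes was examined, the cytokine-induced gene Ubd and 9 genes of the NF-kB pathway, out of the 24520 Ensembl gene identifiers for which expression values were given. The 9 were named by function and comprise the subunit genes Nfkb1, Nfkb2, Rela and Relb, the inhibitor genes Nfkbia, Nfkbie and Tnfaip3, and the TNF receptor genes Tnfrsf1a and Tnfrsf1b. Ubd was chosen by its higher TPM at 18 months in the same libraries, and the question was whether this difference goes together with the pathway. The comparison of the ages therefore chose the genes, and their values are given as a description and not as a test. All 10 genes were present in the table under 1 identifier each, and all 10 passed the filter of a mean of at least 1 TPM. Ubd passed it through its 18-month libraries, since its 3 values at 8 months lay on both sides of 1 TPM.

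Lung endothelial cells, which line the blood vessels, had been sorted by FACS from mice aged 18 months (Aged, 3 libraries) and 8 months (mAdu, 3 libraries). Both groups carried the genotype label wt, and neither had a labelled treatment other than age. The labels name neither sort markers nor whether the libraries of an age came from separate mice or from pools, and the spread between libraries may thus be technical. Values are TPM, a relative abundance scaled to transcript length that allows the levels of different genes to be compared within a library.

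NF-kB is a family of dimeric transcription factors that inhibitor proteins hold in the cytoplasm until a cytokine such as TNF binds its receptor. The receptor recruits adaptors and a kinase complex that marks the inhibitor for destruction, and the freed dimer enters the nucleus, where it switches on adhesion molecules and chemokines in endothelium as well as the genes of its own inhibitors. Activity is set mainly at the protein level, so RNA of the subunits does not measure it. Ubd encodes FAT10, a ubiquitin-like modifier that is attached to other proteins and sends them to the proteasome, and which is known to be induced by TNF and interferon-gamma acting together.

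The markers Pecam1, Cdh5, Kdr, Tek, Tie1, Cldn5, Erg, Emcn, Eng and Vwf were present in every library, and the summed level of these 10 endothelial markers was 6871, 6227 and 7103 TPM in 18-month libraries, against 7608, 8320 and 8120 TPM in 8-month libraries. All 18-month sums lay below all 8-month sums. RNA of other cells was also present. The summed level of 9 epithelial markers ran from 9328 to 18970 TPM at 18 months and from 10810 to 19690 TPM at 8 months, led by Scgb1a1 and Sftpc. That of 12 macrophage markers ran from 925.2 to 1711 TPM at 18 months and from 630.7 to 1757 TPM at 8 months. The third 8-month library had the highest sums for the epithelial, B cell, T and NK cell and mature dendritic cell markers. The summed level of 7 neutrophil markers ran from 15.29 to 18.29 TPM at 18 months and from 12.76 to 15.79 TPM at 8 months. Most of this was Cxcr2, at 11.7 to 13.17 TPM at 18 months and 10.25 to 14.25 TPM at 8 months. S100a8 lay at 1.63, 3.566 and 1.35 TPM in 18-month libraries, against 1.165, 0.3265 and 1.038 TPM in 8-month libraries. Ly6g, 1 of the 7, was listed at 0 in all 6 libraries. Across the 12748 genes that passed the filter, limma called 3 genes at an adjusted p under 0.05 between the ages, which is 0.0235% of those tested, and 0 of the 10 genes examined were among them. The calls were 1 higher gene (0.00784%) and 2 lower genes (0.0157%). Without adjustment limma counted 440 higher genes (3.45%) and 1274 lower genes (9.99%) under 0.05, and Ubd, Rela and Tnfrsf1a, 3 of the 10, were among them. This split depended on the scaling, with 757 higher and 879 lower under median-of-ratios scaling, 751 and 979 under quantile normalization, and 772 and 770 once GC content and length were corrected for. Nothing is read from these counts of the 10, because the same contrast chose Ubd.

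Ubd differed more between the ages than any of the other tested genes in log2(TPM + 1). It lay at 7.545, 19.1 and 6.80 TPM in 18-month libraries, against 0.0808, 1.21 and 0.191 TPM in 8-month libraries. The second library was the highest of its age in both groups, and the lowest 18-month value was 5.62 times the highest 8-month value. The means were 11.1 ± 6.89 TPM at 18 months and 0.494 ± 0.622 TPM at 8 months (n = 3 each, SD), a ratio of 22.6. The log2 difference was 2.96 with an SE of 0.42 and a 95% interval from 1.99 to 3.93 (limma). Without the second 18-month library the ratio of the means was 14.5 and the log2 difference 2.53, which placed Ubd at rank 3 by size among all tested genes. Without the second 8-month library, which alone exceeded 1 TPM among the 8-month libraries, the ratio was 82.1, and it was 15.9 to 27.0 without each of the other 4. Its rank was 1 or 2 under the other scalings, filters and corrections, 4 with a pseudocount of 0.1, and as low as 9 without the third 8-month library. The 8-month values are low and the depth is unknown, so the ratio is imprecise.

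**Figure D1:**
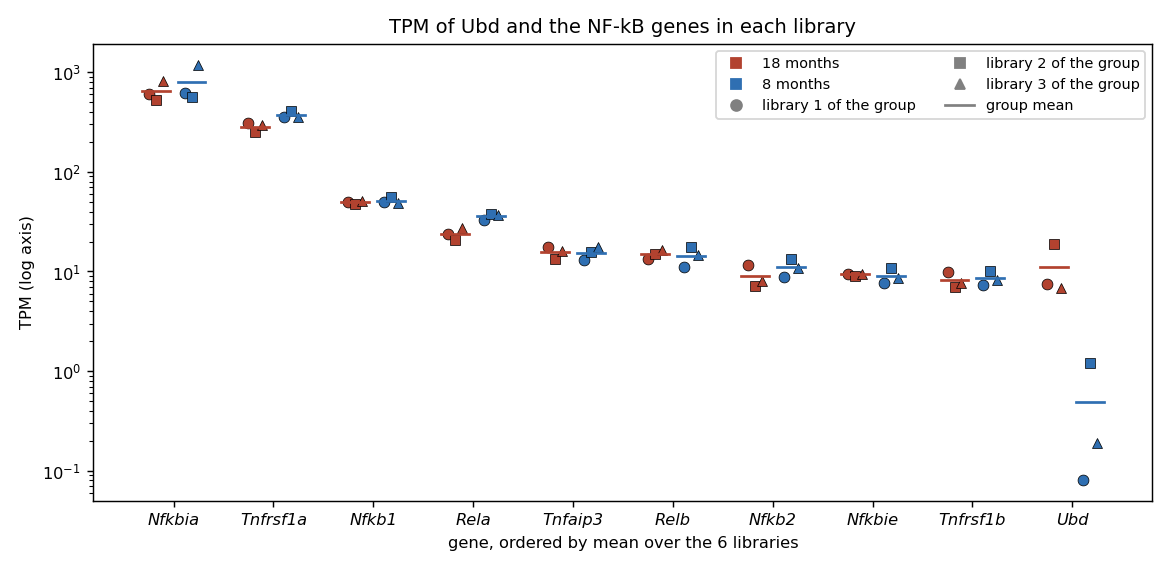
TPM of the 10 genes on a log axis, with 18-month libraries in red to the left of 8-month libraries in blue, symbols for the library number and bars for group means. Ubd is separated by age, from 6.80 to 19.1 TPM at 18 months and from 0.0808 to 1.21 TPM at 8 months, while most of the other genes overlap.

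The Ubd promoter is shown because it carries a 10-base NF-kB word next to the transcript start, together with the promoters of the 2 feedback inhibitors Nfkbia and Tnfaip3, which also hold NF-kB matches, and that of Rela, which holds none. Each run is the 250 bases before the annotated start, 5′ to 3′ on the strand of the gene, from RefSeq on GRCm38.p6, and capitals mark matches to the NF-kB consensus on either strand.
Ubd, chr17:37193642-37193891, + strand: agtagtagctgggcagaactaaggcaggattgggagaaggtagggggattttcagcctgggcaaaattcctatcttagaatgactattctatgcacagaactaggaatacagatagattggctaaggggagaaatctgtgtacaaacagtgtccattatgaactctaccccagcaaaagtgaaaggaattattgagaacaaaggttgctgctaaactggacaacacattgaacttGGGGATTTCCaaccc
Tnfaip3, chr10:19015411-19015660, - strand: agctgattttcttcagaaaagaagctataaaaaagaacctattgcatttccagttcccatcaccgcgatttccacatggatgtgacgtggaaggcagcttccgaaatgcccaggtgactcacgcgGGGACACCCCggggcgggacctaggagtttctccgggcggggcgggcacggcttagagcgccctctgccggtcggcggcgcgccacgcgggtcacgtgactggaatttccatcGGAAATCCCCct
Nfkbia, chr12:55492648-55492897, - strand: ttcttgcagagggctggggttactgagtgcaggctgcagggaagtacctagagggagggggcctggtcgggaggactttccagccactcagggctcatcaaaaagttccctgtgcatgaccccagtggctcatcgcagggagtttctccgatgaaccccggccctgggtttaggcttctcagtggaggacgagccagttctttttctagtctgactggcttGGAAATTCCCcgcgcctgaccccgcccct
Rela, chr19:5637291-5637540, + strand: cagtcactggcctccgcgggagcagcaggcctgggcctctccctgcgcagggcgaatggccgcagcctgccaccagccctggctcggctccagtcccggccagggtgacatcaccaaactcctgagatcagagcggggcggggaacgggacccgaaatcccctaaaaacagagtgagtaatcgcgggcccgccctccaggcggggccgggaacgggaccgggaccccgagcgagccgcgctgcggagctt

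RefSeq promoters were found for 8 of the 10 genes, and Nfkb1 and Relb were not among them. The NF-kB consensus occurred in 7 of the 11 windows of these 8 genes, and in 7.25% of all 32851 windows. The 7 belonged to 5 genes, Ubd, Nfkb2, Nfkbia, Nfkbie and Tnfaip3, and 8.23% of all genes held a match. In Ubd the match GGGGATTTCC lay 15 to 6 bases before the start. Tnfaip3 held the same word on the opposite strand, printed above as GGAAATCCCC, at 12 to 3 bases before one of its 2 starts, and this word occurred in 0.0944% of all windows, a search made after the Ubd sequence had been read. The interferon-gamma activated site GAS, TTCNNNGAA, occurred in Tnfrsf1a, Tnfrsf1b and Nfkb2 and in 7.02% of all windows. The core of the interferon response element, GAAANNGAAA, occurred in Tnfrsf1b alone among the 8 genes and in 2.98% of all windows. Both strands were searched, GAS reads the same on both, and matches that overlapped between strands fell in Nfkb2 and Tnfaip3. The Ubd window held 0 CpG dinucleotides at a GC content of 42.8%, while the windows of the other 7 genes held 6 to 23. A match is a sequence feature and does not show binding.

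**Figure D2:**
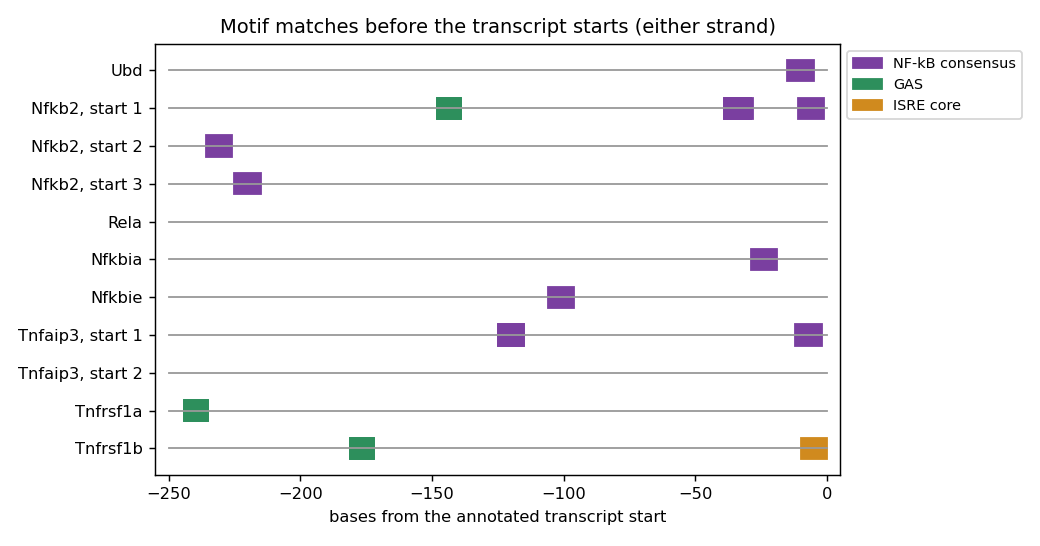
Matches to the NF-kB consensus, GAS and the ISRE core in the 250 bases before each annotated transcript start, either strand, with 1 line for each start of the 8 genes found. Ubd, Nfkb2, Nfkbia, Nfkbie and Tnfaip3 carry NF-kB matches, and Rela carries no match to any of the 3 motifs.

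Among the subunits, Rela, which encodes the transactivating subunit of the classical dimer, was lower at 18 months. It lay at 23.7, 20.6 and 27.2 TPM in 18-month libraries, against 32.7, 37.6 and 36.8 TPM in 8-month libraries. The ages did not overlap, and the second 18-month library, which was highest in Ubd, was lowest in Rela. Rela averaged 23.8 ± 3.28 TPM at 18 months and 35.7 ± 2.63 TPM at 8 months (n = 3 each, SD), which is 66.7% of the 8-month level and a log2 difference of -0.57 (SE 0.13). Once GC content and transcript length were corrected for, it was -0.37. Of the endothelial markers 9 of 10 were nominally lower, where 66.2% of all tested genes were, but not evenly. Pecam1, Tek, Emcn and Erg stood at 0.003, -0.035, -0.034 and -0.081 on the log2 scale, where the median of all tested genes was -0.079. The rest ran from -0.27 for Cldn5 to -0.79 for Eng. The summed level of the 10 markers at 18 months was 0.84 of that at 8 months. Relative to that sum Rela remained apart, with 3.44, 3.31 and 3.82 TPM per 1000 TPM of endothelial markers at 18 months and 4.30, 4.53 and 4.53 at 8 months. In bulk libraries fewer cells of a type and less RNA per cell cannot be told apart.

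Nfkb1, whose product is processed to the partner of RELA, had overlapping TPM levels at both ages. It lay at 49.4, 48.1 and 50.6 TPM in 18-month libraries, against 49.3, 55.6 and 49.2 TPM in 8-month libraries, with overlap and a log2 difference of -0.06 (95% interval -0.28 to 0.17). Per 1000 TPM of summed endothelial markers, however, Nfkb1 was higher at 18 months without overlap, at 7.19, 7.72 and 7.12 in 18-month libraries, against 6.48, 6.69 and 6.06 in 8-month libraries, a ratio of 1.15. That sum was itself lower at 18 months, at 0.84 of the 8-month level, so a gene of unchanged TPM comes out higher by the division. The share of all tested genes separated on this scale was not counted. The ratio of Rela to Nfkb1 within a library was 0.479, 0.429 and 0.537 at 18 months and 0.664, 0.677 and 0.747 at 8 months, again without overlap. Nfkb2 and Relb encode the partners of the alternative pathway. Nfkb2 lay at 11.5, 7.12 and 8.08 TPM in 18-month libraries, against 8.88, 13.4 and 10.7 TPM in 8-month libraries. It shares bases with Psd on the opposite strand, and since the kit does not mark strand its value is uncertain. Relb lay at 13.3, 14.9 and 16.5 TPM in 18-month libraries, against 11.2, 17.6 and 14.5 TPM in 8-month libraries. Its log2 difference of 0.06 (95% interval -0.35 to 0.47) became 0.37 after the GC and length correction and -0.10 without the first 8-month library. The summed level of these 4 and of Rel, the remaining subunit gene, was 110, 98.0 and 110 TPM in 18-month libraries, against 110, 139 and 122 TPM in 8-month libraries, with overlap. Rel alone averaged 8.83 ± 2.73 TPM at 18 months, against 10.8 ± 3.23 TPM at 8 months.

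Among the inhibitors, Nfkbia encodes the protein that masks the classical dimer and is itself switched on by NF-kB within minutes of a stimulus. It had the highest level of the 10 genes, with 602, 530.5 and 812 TPM in 18-month libraries, against 614, 567 and 1188 TPM in 8-month libraries. The ages overlapped, and the third library was the highest of each age. The log2 difference was -0.22 with a 95% interval from -0.89 to 0.44, and it turned to 0.11 without the third 8-month library. Nfkbia RNA was 5.48, 5.42 and 7.41 times the summed subunit RNA at 18 months and 5.59, 4.09 and 9.77 times at 8 months. Nfkbie, a related inhibitor, lay at 9.46, 9.06 and 9.51 TPM at 18 months, all inside the 8-month span of 7.68, 10.85 and 8.59 TPM. Tnfaip3 encodes the ubiquitin-editing enzyme that shuts down signalling from the TNF receptor, and it too is induced by NF-kB. It lay at 17.8, 13.5 and 16.1 TPM in 18-month libraries, against 13.0, 15.6 and 17.8 TPM in 8-month libraries, with a log2 difference of 0.03 (95% interval -0.34 to 0.40). The NF-kB word that Tnfaip3 shares was read from the promoter of Ubd, which was chosen by its age difference. Whether the word bears on that difference was not tested.

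The 2 TNF receptors differed in level and in their relation to age. Tnfrsf1a, the receptor with a death domain that is expressed by most cells, lay at 307.5, 249.8 and 294.1 TPM in 18-month libraries, against 352.5, 404.0 and 358.6 TPM in 8-month libraries. The ages did not overlap, and the second library was the lowest at 18 months and the highest at 8 months. Tnfrsf1a averaged 283.8 ± 30.2 TPM at 18 months and 371.7 ± 28.2 TPM at 8 months (n = 3 each, SD), a log2 difference of -0.39 (SE 0.11), or -0.24 after the GC and length correction. Relative to the summed endothelial markers the ages overlapped, at 44.8, 40.1 and 41.4 per 1000 TPM at 18 months and 46.3, 48.6 and 44.2 at 8 months. Tnfrsf1b, the receptor without a death domain, lay at 9.78, 6.98 and 7.64 TPM in 18-month libraries, against 7.32, 10.1 and 8.31 TPM in 8-month libraries, with overlap. RNA of Tnfrsf1a was 31.4 to 38.5 times that of Tnfrsf1b at 18 months and 40.0 to 48.2 times at 8 months.

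Of the 10 genes, Ubd alone lay without overlap above the 8-month libraries, as did 4.48% of all tested genes, and Rela and Tnfrsf1a lay without overlap below them, as did 14.2% of all tested genes. The other 7 overlapped. Of the 9 pathway genes, 3 were nominally higher (Relb, Nfkbie and Tnfaip3) and 6 lower, between -0.57 and 0.06 on the log2 scale with a median of -0.07, where the median of all tested genes was -0.079 and 33.8% of them lay above 0. The GC and length correction left Nfkb2 at -0.025, against -0.28 before it. It also moved the median of the 5 subunits from -0.26 to -0.025. Filters, a fit without the trend and a block for the replicate number could not change a gene's log2 difference. With these counted, the signs of Nfkb2, Rela and Tnfrsf1a were kept under all 18 alternatives. Those of the other 6 changed under 1 to 6 of them, and Nfkb1 and Tnfrsf1b became higher by 0.041 or less under median-of-ratios scaling and quantile normalization and by 0.070 and 0.117 after the GC and length correction, and the median of all genes moved to between -0.003 and 0.009 under these 3.

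**Figure D3:**
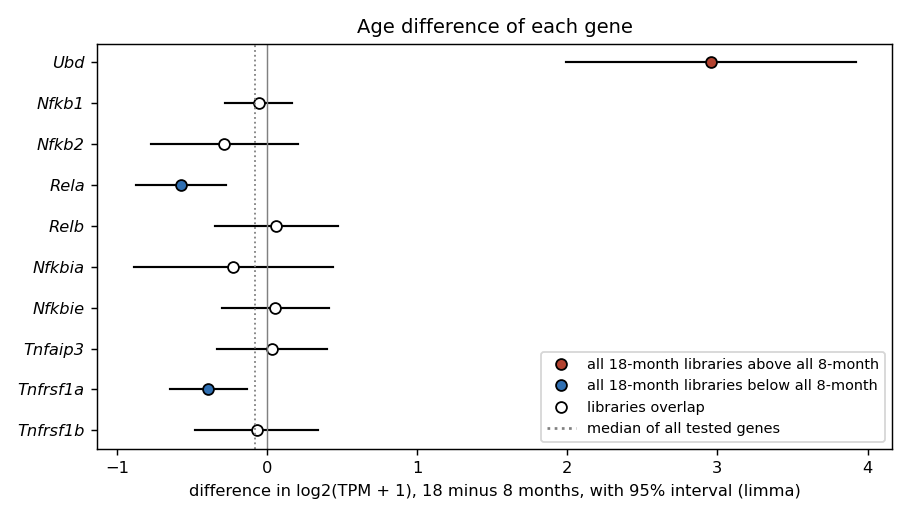
Difference in log2(TPM + 1), 18 minus 8 months, with the 95% interval of limma for each gene, filled where the ages do not overlap, and the median of all tested genes as a dotted line. Ubd stands at 2.96 and the 9 pathway genes between -0.57 and 0.06.

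The order of libraries within an age was shared by Ubd and most pathway genes at 8 months and not at 18 months. In the second 18-month library, which had the most Ubd, 8 of the 9 pathway genes had their lowest 18-month value and none its highest. Of all tested genes 52.4% had their lowest 18-month value there. At 8 months the second library again had the most Ubd, and 7 of the 9 pathway genes were highest there, where 48.4% of all tested genes were. With 3 libraries an age these orders are a description of the libraries. Over the 6 libraries the root mean square difference from the centred Ubd profile was 1.53 to 1.87 on the log2 scale for the 9 genes, and 1.63 for the median tested gene. This distance includes the age difference by which Ubd was chosen, so it adds no separate measure of the order within an age.

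By level, the order over all libraries was Nfkbia, Tnfrsf1a, Nfkb1, Rela, Tnfaip3, Relb, Nfkb2, Nfkbie, Tnfrsf1b and Ubd. Nfkbia, Tnfrsf1a, Nfkb1 and Rela were each separated from the next gene at both ages. Tnfaip3 and Relb overlapped at both ages, as did Nfkb2 and Nfkbie, and Nfkbie and Tnfrsf1b. Relb was above Nfkb2 without overlap at 18 months and overlapped it at 8 months. Ubd was below Tnfrsf1b in every 8-month library, and at 18 months its 6.80 to 19.1 TPM overlapped the 6.98 to 9.78 TPM of Tnfrsf1b. In mean level Nfkbia stood above 98.8% of the tested genes, Tnfrsf1a above 96.7% and Ubd above 28.4%.

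The wider pathway was described through lists of ligands, receptors, adaptors, kinases, subunits, inhibitors and target genes, 104 distinct genes with the 9 included. Of these, 90 were tested, 41 were nominally higher and 49 lower, where 33.8% of all tested genes were higher. In limma 0 passed. At an unadjusted p under 0.05, 2 were higher and 10 lower, where 3.45% and 9.99% of all tested genes were. Groups did not overlap in 2 higher genes, 2.22% against 4.48% of all tested genes, and in 13 lower genes, 14.4% against 14.2%. The median log2 difference was -0.04. The shares without overlap are near those of all genes or below them. The cytokine Tnf was under the filter at both ages, with 0.683, 1.04 and 0.255 TPM in 18-month libraries, against 0.456, 0.198 and 0.635 TPM in 8-month libraries. Among the 8 tested ligands the smallest p belonged to Il18, with 4.73, 5.78 and 2.43 TPM in 18-month libraries, against 1.16, 1.25 and 3.77 TPM in 8-month libraries (limma adjusted p = 0.39), and the list was split into 4 higher and 4 lower. Il1a averaged 17.9 ± 6.39 TPM at 18 months, against 24.7 ± 3.81 TPM at 8 months, and Tnfsf12 16.4 ± 0.486 TPM at 18 months, against 19.6 ± 1.98 TPM at 8 months (n = 3 each, SD).

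Of the 13 tested receptors, 5 were higher and 8 lower, with a median of -0.06. Il1rap, the co-receptor for IL-1, lay at 14.6, 11.4 and 14.2 TPM in 18-month libraries, against 21.8, 16.6 and 22.2 TPM in 8-month libraries without overlap (limma adjusted p = 0.20). Ltbr, the lymphotoxin receptor that feeds the alternative pathway, lay at 91.0, 66.5 and 66.9 TPM in 18-month libraries, against 122, 109.6 and 82.3 TPM in 8-month libraries, with overlap. Of the 18 adaptors and ubiquitin ligases, 7 were higher and 11 lower. Rbck1, a subunit of the complex that builds linear ubiquitin chains, lay at 43.7, 37.8 and 38.8 TPM in 18-month libraries, against 47.2, 68.6 and 61.3 TPM in 8-month libraries (limma adjusted p = 0.20). Tradd, the adaptor that binds the death domain of the TNF receptor, lay at 27.3, 23.9 and 22.6 TPM in 18-month libraries, against 31.8, 39.6 and 28.9 TPM in 8-month libraries (limma adjusted p = 0.26). Neither overlapped between the ages, nor did Traf6, a ubiquitin ligase, with 11.5 ± 2.27 TPM at 18 months against 14.3 ± 0.321 TPM at 8 months. The 10 tested kinases were split into 5 higher and 5 lower, and Tbk1, a kinase of the interferon and NF-kB responses, lay at 85.3, 83.0 and 92.8 TPM in 18-month libraries, against 69.2, 75.9 and 74.2 TPM in 8-month libraries (limma adjusted p = 0.31). Tab1 and Tab2, partners of the kinase TAK1, overlapped between the ages, with means of 17.1 and 8.52 TPM at 18 months against 19.7 and 7.43 TPM at 8 months. Of the 16 inhibitors, 7 were higher and 9 lower, with a median of -0.08. Tnip2, a partner of the Tnfaip3 protein, was the one inhibitor without overlap, at 60.4, 51.8 and 55.9 TPM in 18-month libraries, against 61.7, 75.0 and 63.7 TPM in 8-month libraries (limma adjusted p = 0.40). Nfkbib and Nfkbil1 overlapped, with means of 24.9 and 0.698 TPM at 18 months against 31.6 and 1.39 TPM at 8 months.

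Target genes that cytokines induce through NF-kB in endothelium were more often higher than lower, with log2 differences from -1.45 to 0.77. Of the 27 tested, 17 were higher and 10 lower, where 33.8% of all tested genes were higher. The median log2 difference was 0.04 against -0.079 for all tested genes, and it became -0.15 without the first 18-month library. In limma 0 passed. At an unadjusted p under 0.05, 1 was higher and 4 lower, where 3.45% and 9.99% of all tested genes were. Without the pathway genes examined and those shared with the interferon-gamma list below, 20 were left. Of these, 12 were higher and 8 lower, 0 and 4 of them without overlap, where 4.48% and 14.2% of all tested genes were. Cx3cl1, a membrane-bound chemokine, lay at 35.9, 27.1 and 29.5 TPM in 18-month libraries, against 45.4, 51.2 and 56.6 TPM in 8-month libraries (limma adjusted p = 0.13). Ccl2, which attracts monocytes, lay at 2.05, 2.54 and 1.04 TPM in 18-month libraries, against 4.21, 3.37 and 4.04 TPM in 8-month libraries (limma adjusted p = 0.21). Both were lower without overlap. Icam1, an adhesion molecule for leukocytes, also lay lower without overlap, at 435.6, 412.3 and 439.7 TPM in 18-month libraries, against 462.2, 554.0 and 537.9 TPM in 8-month libraries, while Vcam1 lay at 55.6, 35.4 and 50.1 TPM in 18-month libraries, against 36.0, 143.7 and 97.2 TPM in 8-month libraries with overlap. The one target without overlap on the higher side was Cxcl10, a chemokine that interferon also induces, with 10.4, 9.55 and 5.99 TPM in 18-month libraries, against 3.38, 5.36 and 5.72 TPM in 8-month libraries (limma adjusted p = 0.26).

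**Figure D4:**
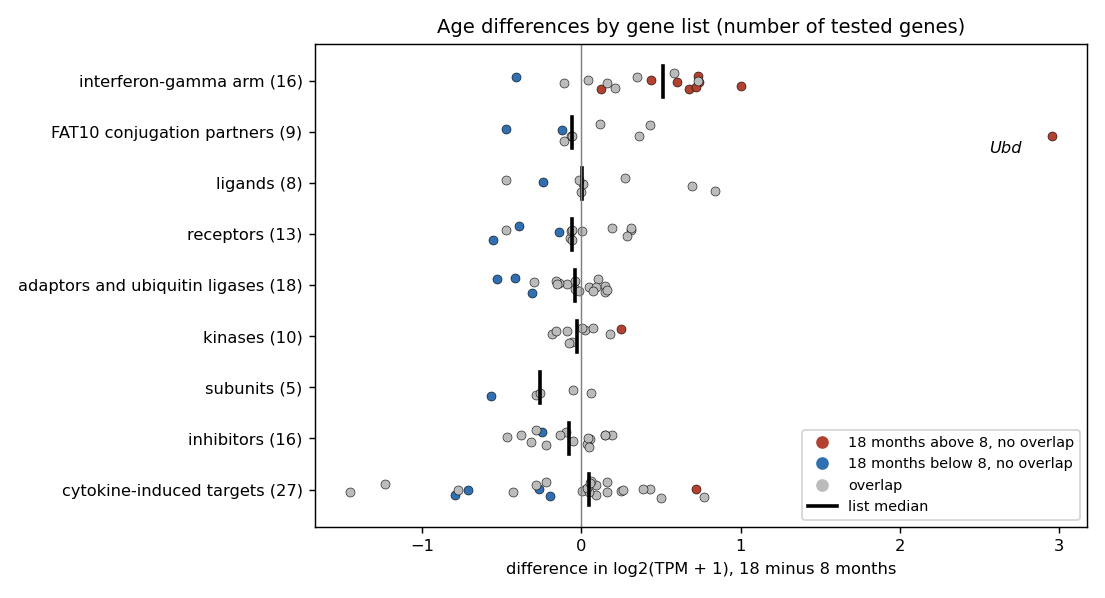
Difference in log2(TPM + 1), 18 minus 8 months, for every tested gene of 9 lists, with the list median as a bar and colour where the ages do not overlap. The NF-kB lists centre near 0, the interferon-gamma arm has its median at 0.51, and Ubd lies at 2.96 among the FAT10 conjugation partners. All lists were chosen with earlier results of these data known.

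The genes that handle the Ubd product were split in direction much as all tested genes were. Of the other 8 genes of the FAT10 list, 3 were higher and 5 lower, where 33.8% and 66.2% of all tested genes were. The median was -0.06, and 2 of the 8 lay lower without overlap, as did 14.2% of all tested genes. In limma 0 passed. At an unadjusted p under 0.05, 0 were higher and 1 lower, where 3.45% and 9.99% of all tested genes were. Uba6, the enzyme that activates FAT10, lay at 12.05, 8.78 and 9.89 TPM in 18-month libraries, against 11.0, 10.7 and 10.4 TPM in 8-month libraries. Ube2z, which receives it from Uba6, lay at 16.7, 14.4 and 16.2 TPM in 18-month libraries, against 18.8, 16.9 and 15.5 TPM in 8-month libraries. Adrm1, a ubiquitin receptor of the proteasome, had the smallest p of the 8 and was lower without overlap, at 116.6, 98.5 and 103.3 TPM in 18-month libraries, against 144.8, 159.4 and 139.2 TPM in 8-month libraries. Mad2l1, a checkpoint protein that binds FAT10, averaged 5.57 ± 0.719 TPM at 18 months, against 4.14 ± 1.91 TPM at 8 months, with overlap.

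The interferon-gamma arm, the other input known to induce Ubd, was higher in 14 of its 16 tested genes, where 33.8% of all tested genes were, and the median log2 difference was 0.51. This list, like the others, was chosen with earlier results of these data known, so its counts are a description and not a test. Of the 16, 0 passed in limma. At an unadjusted p under 0.05, 6 were higher and 1 lower, where 3.45% and 9.99% of all tested genes were, and 8 lay without overlap above the 8-month libraries, as did 4.48% of all tested genes. Nlrc5, the transactivator of MHC class I genes, lay at 28.1, 46.5 and 30.2 TPM in 18-month libraries, against 19.7, 17.1 and 24.2 TPM in 8-month libraries (limma adjusted p = 0.20). Ciita, the transactivator of MHC class II genes, lay at 22.3, 51.3 and 24.75 TPM in 18-month libraries, against 21.9, 9.95 and 14.5 TPM in 8-month libraries (limma adjusted p = 0.29). The second 18-month library was the highest of all 6 in 10 of the 16 genes, in Ubd and in 8.23% of all tested genes. Psmb9, a gene of the immunoproteasome, lay at 298.8, 667.8 and 393.6 TPM in 18-month libraries, against 279.3, 255.0 and 270.5 TPM in 8-month libraries. Without that library the median of the list was 0.24, and 8 genes lay above the 8-month libraries without overlap, as did 8.26% of all tested genes under the same omission. The receptor gene Ifngr2 was lower without overlap, at 97.9, 66.4 and 84.1 TPM in 18-month libraries, against 108.0, 118.8 and 100.9 TPM in 8-month libraries. Ifng itself lay at 0.0695 and 0.0573 TPM in the first 2 libraries at 18 months and was listed at 0 in the other 4 libraries.

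**Figure D5:**
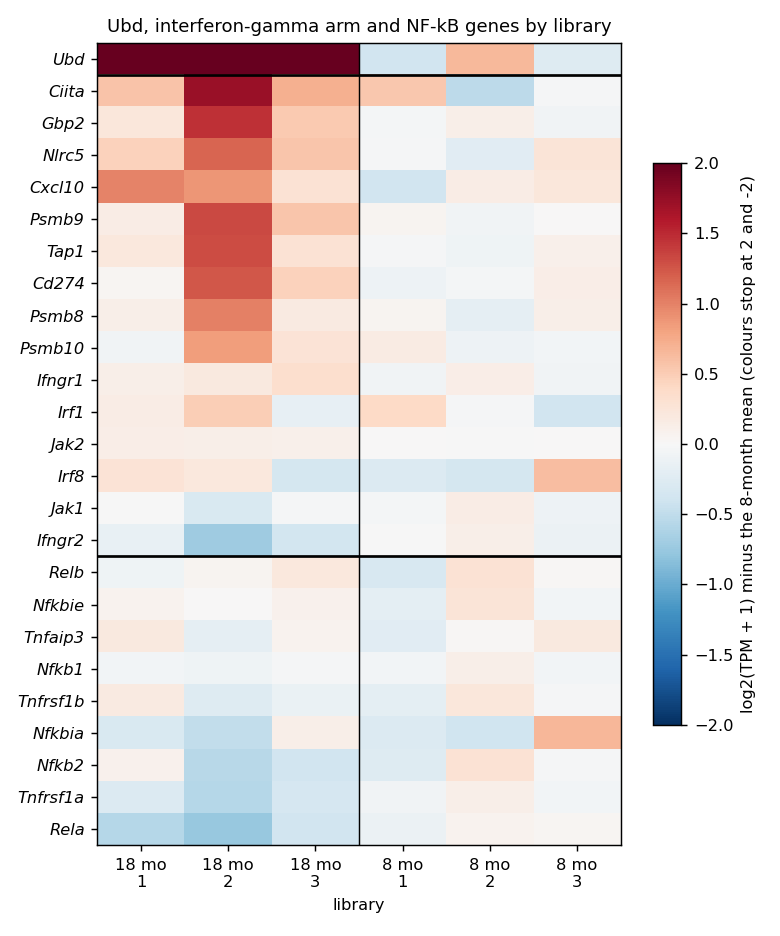
Colour gives log2(TPM + 1) minus the mean of the 8-month libraries for Ubd, 15 of the 16 tested genes of the interferon-gamma arm and the 9 NF-kB genes in each library, 18 months on the left. The second 18-month library is highest in Ubd and in 9 of the 15 interferon genes shown, and lowest of its age in 8 of the 9 NF-kB genes.

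The genes with the profile most like that of Ubd over the 6 libraries were not pathway genes. By root mean square difference between centred profiles they were Gm7609, a transcribed pseudogene, at 0.585, H2-DMa, which loads peptides on MHC class II, at 0.714, the identifier ENSMUSG00000118607 at 0.764, the microRNA gene Mir5107 at 0.807 and Cd74, the invariant chain of MHC class II, at 0.820. All 5 were highest in the second 18-month library, and Gm7609 was the 1 higher gene that passed in limma (adjusted p = 0.034), with 12.3, 18.4 and 13.0 TPM in 18-month libraries, against 2.32, 2.44 and 2.62 TPM in 8-month libraries. H2-DMa lay at 203.2, 578.3 and 280.4 TPM in 18-month libraries, against 91.6, 59.5 and 86.1 TPM in 8-month libraries. Mir5107 lies within the span of Cd74, so the pair may share reads. Likeness to Ubd reflects the age difference as well as the order within an age.

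Ubd lies on chromosome 17 (37193892 to 37196095, GRCm38, plus strand), within the MHC region, and no other gene of the table overlaps it. Its nearest tested neighbours on one side were Gabbr1, a GABA receptor gene 118825 bases away, averaging 10.5 ± 1.28 TPM at 18 months, against 10.9 ± 1.97 TPM at 8 months, and Zfp57, an imprinting factor gene, averaging 25.5 ± 1.69 TPM at 18 months, against 28.8 ± 2.61 TPM at 8 months. On the other side H2-M3, a non-classical MHC class I gene 74125 bases away, lay at 172.8, 304.4 and 202.9 TPM in 18-month libraries, against 162.7, 145.7 and 151.5 TPM in 8-month libraries, higher without overlap (limma adjusted p = 0.31). Olfr99, an olfactory receptor gene, averaged 2.83 ± 0.94 TPM at 18 months, against 2.24 ± 0.46 TPM at 8 months (n = 3 each, SD).

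Levels of other cell types were set beside Ubd. All 9 tested macrophage markers were nominally higher, where 33.8% of all tested genes were, with a median log2 difference of 0.66. Chil3 and Cd14, 2 of the 9, lay without overlap above the 8-month libraries, as did 4.48% of all tested genes. Chil3 was separated only by 140.5 against 140.1 TPM. The summed level over the 12 listed macrophage genes overlapped between the ages. The sum was highest in the third 8-month library, at 1757 TPM, of which Lyz2 made up 1542 TPM. The mean log2 level of the 9 tested genes was slightly higher in the second 18-month library, which had the most Ubd, at 4.34, against 4.29 in the third 8-month library. Which of these libraries led thus depended on the measure. Chil3 lay at 140.5, 390.6 and 248.7 TPM in 18-month libraries, against 26.7, 31.4 and 140.1 TPM in 8-month libraries, and Cd68 and Adgre1 were likewise highest in the second 18-month library. The third 8-month library held 44.6 TPM of 8 B cell markers, 38.0 TPM of 10 T and NK cell markers and 100.1 TPM of 10 mature dendritic cell markers, each the highest of the 6 libraries, and it had 0.191 TPM of Ubd. In the second 18-month library, with the most Ubd, the same sums were 10.2, 20.4 and 59.9 TPM. Zbtb46 alone gave 37.4 TPM of the dendritic cell sum in the third 8-month library and 29.0 TPM in the second 18-month library. Which cells its RNA came from was not tested. The B cell sum ran from 10.2 to 16.0 TPM at 18 months and from 14.2 to 44.6 TPM at 8 months. Fibroblast and mural markers were lower in all 7 tested genes at 18 months, where 66.2% of all tested genes were lower. Their sums were 14.4 to 18.5 TPM at 18 months, against 28.1 to 42.0 TPM at 8 months. The part of these cells in the values of the 10 genes was not tested.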

How the data were processed

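RNA of sorted lung endothelial cells was sequenced in 6 libraries. Per the labels' protocols, RNA from frozen pellets was isolated with the PicoPure kit, 10 ng went into each SMARTer Ultra Low library, and 100 bp paired-end reads were taken. The authors deposited TPM per Ensembl gene, made with kallisto and build mm10 per the submitters' processing notes. The kallisto version and transcript set were not given in the sources used here. TPM summed to 869315 to 876126 per library, and depth is unknown.

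Symbols came from GENCODE M21 on GRCm38, which held 24299 of the 24520 identifiers. With R 4.3.3 and limma 3.58.1, log2(TPM + 1) was fitted for the 12748 genes averaging 1 TPM or more, with age as the sole term, an intensity trend, 2-sided tests and Benjamini-Hochberg adjustment at 0.05. Log2 differences understate changes of low genes. Motifs were searched in RefSeq promoters of GRCm38.p6.

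The genes examined and all lists were chosen with earlier results of these data known. Named were the 10 genes, and of each pathway list, the FAT10 list and the interferon-gamma list the 3 genes with the smallest unadjusted p. The 5 profiles nearest to Ubd and its 2 tested neighbours on each side were named as well. Cell type markers were named beside a result, and values of single endothelial and neutrophil markers were given after they were seen. Icam1, Vcam1, Uba6, Ube2z, Psmb9, Ifngr2, Ifng, Tnf, Scgb1a1, Sftpc, Lyz2, Adgre1 and Ly6g were named outside these rules, after their values were seen. One gene of the interferon-gamma arm is counted in its list but not reported here by itself.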

Additional observations from a re-analysis of the deposited data

How the results depend on the processing

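The number of genes past the threshold was 3 in the analysis reported. It was 0 with no filter on low values, 16 under either median-of-ratios scaling or quantile normalization, 94 with library weights, and 0 to 2 with each library left out. Ubd passed in limma with library weights and under none of the other 17 alternatives. Its log2 difference was 4.62 with a pseudocount of 0.1, and 2.53 to 3.28 with each library left out.

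Nfkb1 moved by more than its spread between libraries under median-of-ratios scaling (0.041), quantile normalization (0.033) and a GC and length correction (0.070). That correction also moved Rela to -0.37, Relb to 0.37, Nfkbie to 0.23 and Tnfrsf1a to -0.24, and the cause was not tested. The median of the interferon-gamma arm was 0.24 to 0.60 with each library left out. List medians other than those of the subunits and the interferon-gamma arm changed sign under 3 or more of 18 alternatives, and stayed between -0.22 and 0.20.

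The labels give the ages the same replicate numbers. Deviations of same-numbered libraries correlated at -0.012, -0.090 and 0.057 across genes, and those of differently numbered libraries at -0.069 to 0.083. No pairing was seen, but with so few libraries an age it cannot be told whether the numbers pair them. A fit with the replicate number as a block called 0 genes, and 0 with the correction added. In this balanced design a block cannot change a log2 difference. After correction, block fits thus gave Nfkb1 at 0.070, Rela at -0.37, Relb at 0.37, Nfkbie at 0.23 and Tnfrsf1a at -0.24, as without the block. At an unadjusted p under 0.05 the block fit counted 422 higher and 1023 lower genes.

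After the data were seen, counts of genes without overlap were repeated with each library left out. They were 1 or 2 of the 10 genes higher (2 without the second 8-month library), 2 or 3 lower and 8 to 12 of the interferon-gamma arm higher. With fewer libraries groups overlap less often, and of all tested genes 6.64% to 9.21% were then higher and 16.2% to 27.9% lower without overlap. The highest counts, 3 lower and 12, came without the first 18-month library, where the shares were 27.9% lower and 7.83% higher. Precision is limited by 3 libraries an age and by the low 8-month level of Ubd.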
